A study of Mus musculus with 6 samples.

Results

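The TGF-beta and BMP signalling pathways were followed through 52 of their genes in mouse 3T3 cells with and without an NNMT construct. The genes were chosen by name for their known roles (ligands, latent binding proteins, receptors, SMADs, inhibitors, secreted antagonists and ID genes). Earlier results of these data were known when they were chosen. They are 52 of the 35275 rows of the deposited table. 3T3 is an immortalised mouse fibroblast line. RNA was sequenced from 3 libraries of cells made to overexpress NNMT (nicotinamide N-methyltransferase, an enzyme that methylates nicotinamide) and from 3 libraries of cells with a control construct. All 6 were collected after 48 h in DMEM lacking methionine, to which methionine had been added back to 10 µM, with 10% dialyzed serum. One NNMT library carries no replicate number in the table and is called the unnumbered NNMT library; NNMT values are given in the order unnumbered, replicate 2, replicate 3. The promoter and species of the construct, whether either group is a single clone, and whether the cultures of a group were transduced separately are not stated in the labels. The p-values therefore reflect no more than the spread among these 6 cultures, which may be technical, and a difference between the starting populations of cells cannot be told apart from a response to NNMT.

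TGF-beta and activin ligands bind pairs of type I and type II receptor kinases, which phosphorylate SMAD2 and SMAD3. BMP ligands use other receptors of the same family, which phosphorylate SMAD1, SMAD5 and SMAD9. Both sets of SMADs join SMAD4 and move to the nucleus, and SMAD6 and SMAD7 inhibit them. TGF-beta is secreted in a latent complex held in the matrix by latent TGF-beta binding proteins (LTBPs). In fibroblasts TGF-beta is best known for driving matrix production, and the ID genes, which encode inhibitors of basic helix-loop-helix transcription factors, are classical targets of BMP.

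Levels are FPKM, counted reads per kilobase of gene, scaled to the size of the library, which can be compared between genes. Recovered reads per library ranged from 31622254 to 39982080. A single read on 1 kb was worth 0.0250 to 0.0316 FPKM, and a count of 0 allows up to 3 reads (0.0749 to 0.0947 FPKM on 1 kb, counting error only). Nnmt itself measured 7.60, 5.25 and 6.51 FPKM in the control libraries (replicates 1, 2 and 3, in this order throughout) and 15.7, 15.03 and 18.3 FPKM in the NNMT libraries, a 2.53-fold higher mean (log2 fold change 1.23, limma adjusted p = 4.75e-06). The groups did not overlap, and since the species of the construct is not stated, its own transcript may not be counted in full here. All 10 fibroblast markers on a list of these were detected, with a summed level of 7273 to 7471 FPKM in control and 9195 to 10360 FPKM in NNMT libraries, although Thy1 and Vim were among 4 that fell and Col1a1 and Col3a1 among 4 that rose. Endothelial, epithelial, adipocyte and skeletal muscle markers summed to between 0.118 and 1.39 FPKM in every library, with Epcam, Krt18, Tie1, Emcn, Myod1 and Adipoq listed at 0. Leukocyte markers summed to 2.40 to 2.88 FPKM in control and 1.18 to 1.83 FPKM in NNMT libraries, mostly Cd68, with Cd3e at 0. Genes were tested by limma on log2(FPKM + 1) where their mean reached 1 FPKM, and called at a Benjamini-Hochberg adjusted p under 0.05. Of 10882 genes tested, 65.6% were called (35% higher and 30.6% lower in NNMT cells), so a call alone does not set a gene apart. Each group has n = 3, errors are SD, and a positive log2 fold change means higher in NNMT cells. It is a difference of log2(FPKM + 1), which understates the change of genes at low levels.

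In the NNMT cells the latent binding proteins, the type II TGF-beta receptor and the activin antagonist follistatin were higher, while activin A (Inhba) and Id2 were lower. Of the 52 genes, 40 reached the level for testing and 12 did not. Among the 40, 18 were higher, 11 lower and 11 not called, or 72.5% called against 65.6% of all genes tested. Their median log2 fold change was 0.08, against 0.03 over all genes tested, and the median size of the change regardless of direction was 0.31 against 0.24. Of the 40, 6 were called with a log2 fold change of 1 or more in size, where 4.13% of all genes tested were. Fst, Tgfbr2, Id4 and Tgfb2 were the 4 higher (2.36% of all genes tested) and Inhba and Id2 the 2 lower (1.76%). In GENCODE M21 (GRCm38) Fst is ENSMUSG00000021765 at chr13:114452290-114458951, Tgfbr2 is ENSMUSG00000032440 at chr9:116084293-116175360, and Id4 is ENSMUSG00000021379 at chr13:48261228-48266026. Tgfb2 is ENSMUSG00000039239 at chr1:186622792-186705989, Inhba is ENSMUSG00000041324 at chr13:16011851-16031621, and Id2 is ENSMUSG00000020644 at chr12:25093799-25097140. All are protein-coding. In 30 of the 40 the control and NNMT libraries did not overlap, against 69.9% of all genes tested. Tgfb2 reached the level for testing through its NNMT libraries alone, so passing that level already required a difference.

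**Figure D1:**
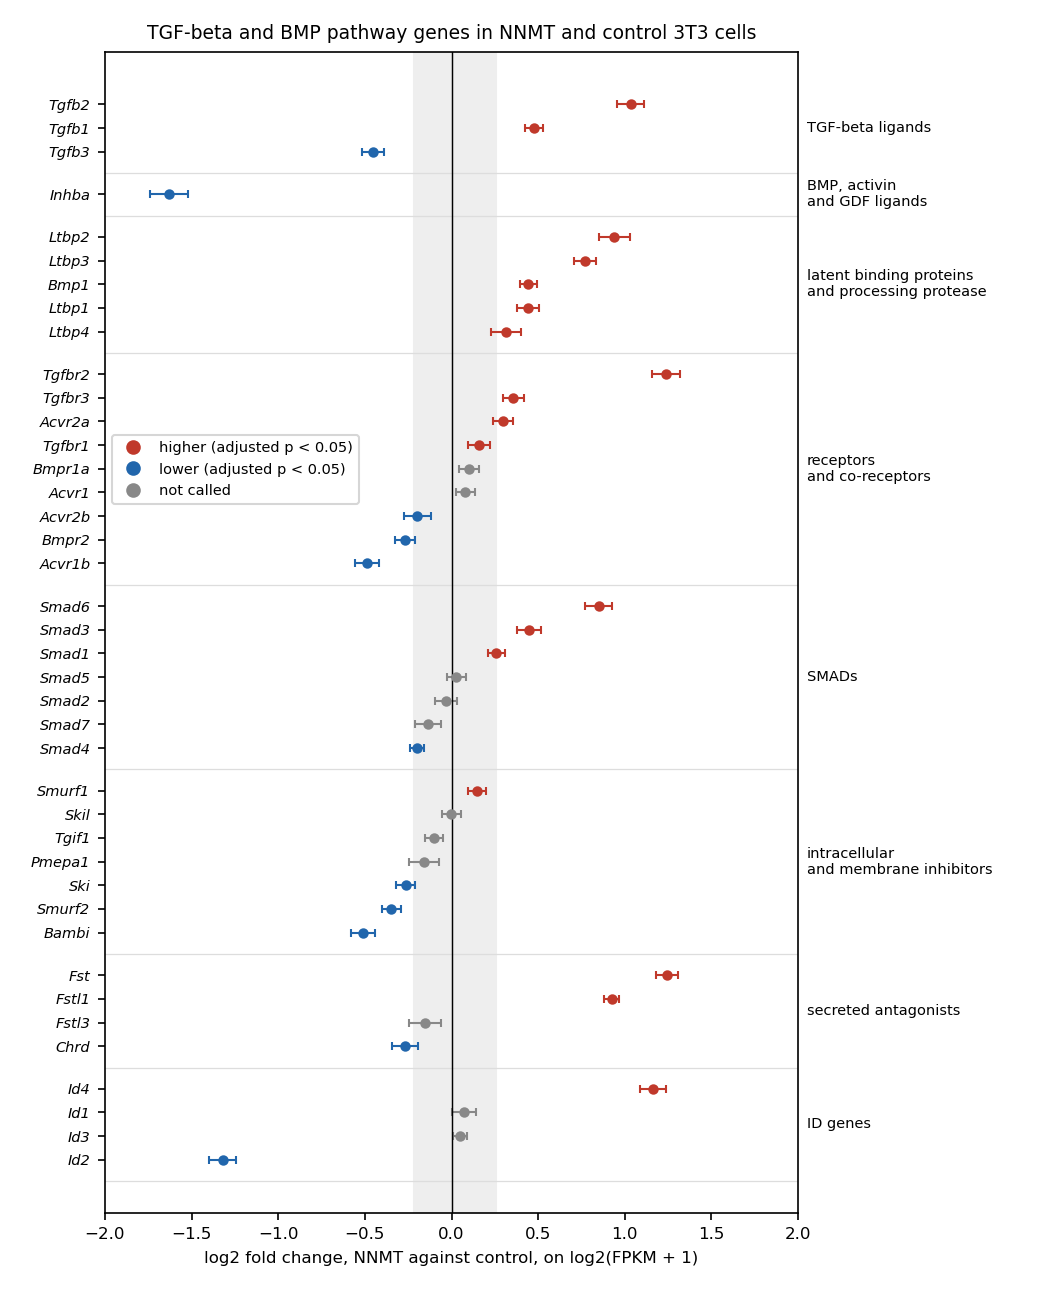
Log2 fold change of the 40 tested pathway genes, NNMT against control, on log2(FPKM + 1), grouped by role; points are limma estimates, bars are 1 standard error, and the grey band holds the middle 50% of all 10882 genes tested. All 5 latent binding and processing genes lie right of 0, the receptors and SMADs lie on both sides, and Inhba (-1.63) and Id2 (-1.32) are the lowest.

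Opposite changes occurred within a family (Id2 against Id4) and between an activin subunit and a TGF-beta receptor (Inhba against Tgfbr2). The upstream sequences of the genes that moved most are therefore shown here. These are the 2 largest falls and the 2 largest rises among the members with an entry in RefSeq's table of promoters (37 of the 52 had one). Each is the 250 bases before the annotated start, written 5′ to 3′ on the gene's strand, in GRCm38.p6. Capitals mark GGCGCC, a GC-rich element bound by BMP-activated SMADs, and CAGAC on either strand, the core of the SMAD-binding element.
Id2: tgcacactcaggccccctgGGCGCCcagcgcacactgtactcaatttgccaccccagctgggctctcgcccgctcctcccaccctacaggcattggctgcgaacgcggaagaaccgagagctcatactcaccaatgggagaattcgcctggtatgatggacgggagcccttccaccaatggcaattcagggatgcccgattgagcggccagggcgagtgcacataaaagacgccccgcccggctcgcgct
Id4: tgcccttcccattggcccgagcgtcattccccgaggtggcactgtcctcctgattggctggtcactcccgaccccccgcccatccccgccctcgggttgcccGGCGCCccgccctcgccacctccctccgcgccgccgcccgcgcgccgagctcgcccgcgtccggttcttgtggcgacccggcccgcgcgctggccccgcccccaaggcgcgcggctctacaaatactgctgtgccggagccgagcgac
Inhba: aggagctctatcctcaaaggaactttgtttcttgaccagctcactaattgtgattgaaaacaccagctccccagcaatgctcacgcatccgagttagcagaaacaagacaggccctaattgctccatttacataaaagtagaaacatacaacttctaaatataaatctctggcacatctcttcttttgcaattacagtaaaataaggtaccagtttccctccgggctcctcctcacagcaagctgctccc
Tgfbr2: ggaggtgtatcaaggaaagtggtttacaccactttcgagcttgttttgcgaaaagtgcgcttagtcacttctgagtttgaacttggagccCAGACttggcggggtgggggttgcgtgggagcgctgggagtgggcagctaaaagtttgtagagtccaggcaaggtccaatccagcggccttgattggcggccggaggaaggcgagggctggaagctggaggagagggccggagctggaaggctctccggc

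The Id2 stretch lies at chr12:25096093-25096342 on the minus strand and the Id4 stretch at chr13:48260866-48261115 on the plus strand. The Inhba stretch lies at chr13:16011601-16011850 on the plus strand and the Tgfbr2 stretch at chr9:116175364-116175613 on the minus strand. Id2 and Id4, which moved in opposite directions, each hold 1 GGCGCC and no CAGAC. Tgfbr2 holds 1 CAGAC and no GGCGCC, and Inhba holds neither. GC content was 62.8% for Id2, 75.6% for Id4, 43.2% for Inhba and 58.4% for Tgfbr2, against a median of 52.4% over all 32851 windows in the table. Over the 37 members with an entry, taking the first window of each, GGCGCC was present in 10, against 9.6% of all windows, and the median GC content was 68.0%. CAGAC on either strand was present in 17 of 37 members, against 42.2% of all windows. The palindromic SMAD box GTCTAGAC was present in 0 of 37 (0.2% of all windows), the AP-1 element TGANTCA in 0 of 37 (6.7%) and CCAAT on either strand in 12 of 37 (33.8%). By direction, GGCGCC was present in 2 of 15 members that rose and 5 of 8 that fell, CAGAC in 7 of 15 and 2 of 8, and CCAAT in 7 of 15 and 1 of 8. None of these motifs contains another, and a match in these letters describes the window and not a site in use.

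The mix of TGF-beta ligands changed while their summed level stayed near 44 FPKM. Tgfb1 (chromosome 7) stood at 14.7, 13.6 and 14.4 FPKM in the control libraries and 20.9, 19.2 and 20.6 FPKM in the NNMT libraries. All NNMT libraries lay above all control libraries, and Tgfb1 rose 1.42-fold (log2 fold change 0.48, SE 0.053, limma adjusted p = 2.42e-05). Tgfb2 (chromosome 1), the least abundant of the ligands, went from 0.659, 0.538 and 0.508 FPKM to 2.38, 2.01 and 2.24 FPKM. Its mean rose 3.89-fold, on 281 reads in control and 1172 in NNMT libraries (log2 fold change 1.03, limma adjusted p = 1.60e-06). Tgfb2 reached the level for testing through its NNMT libraries alone, so its call is not independent of that filter. On recovered reads, without the compression of the added 1 FPKM, its log2 fold change was 1.96. Tgfb3 (chromosome 12), the most abundant ligand in control cells, fell from 30.8, 29.3 and 28.6 FPKM to 23.3, 19.6 and 21.2 FPKM. The lowest control library stood above the highest NNMT library (log2 fold change -0.45, adjusted p = 0.00012). The span of Tgfb3 overlaps Ttll5 on the opposite strand, and no label names the strand rule of the authors' counting. Of the summed ligand level, Tgfb3 held 66.6% ± 0.878 in control and 48.7% ± 1.07 in NNMT libraries, and Tgfb1 held 32.1% ± 0.931 and 46.2% ± 1.14. The sum itself was 44.4 ± 1.60 FPKM in control and 43.8 ± 2.89 FPKM in NNMT libraries, a difference smaller than the spread between libraries.

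**Figure D2:**
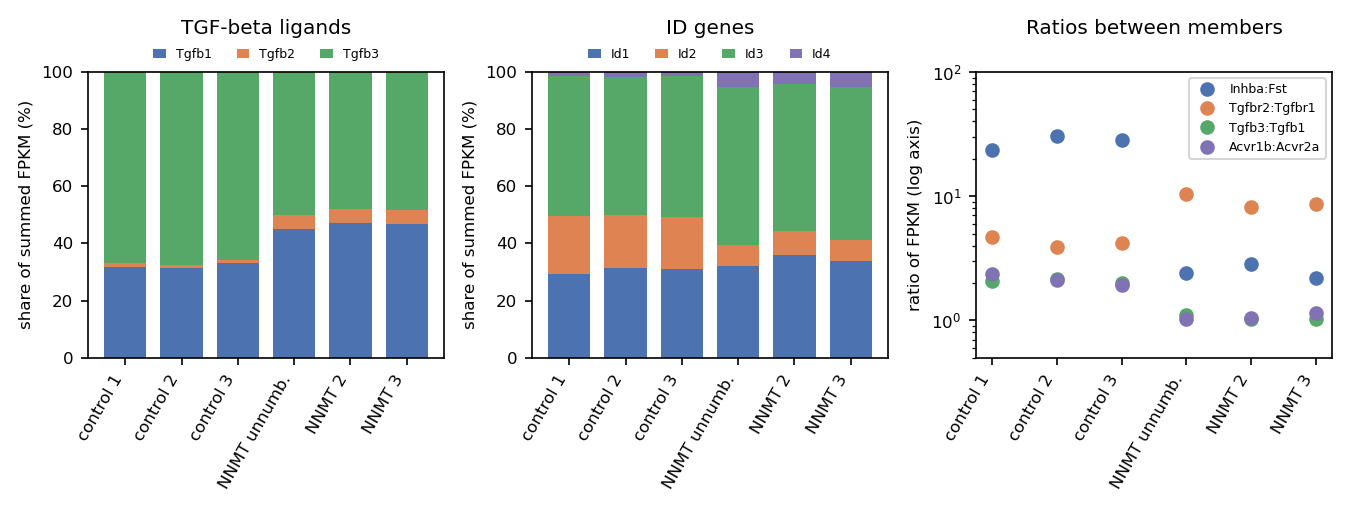
Left and middle, share (%) of the summed FPKM of the TGF-beta ligands and of the ID genes held by each gene in each of the 6 libraries; right, ratio of FPKM between pairs of members on a log axis. Tgfb3 goes from between 65.7 and 67.5% of ligand FPKM in control libraries to between 48.0 and 49.96% in NNMT libraries, and Inhba:Fst goes from between 23.6 and 30.6 to between 2.18 and 2.82.

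Inhba, which encodes the subunit of activin A, was the only tested gene among the BMP, activin and GDF ligands and the strongest fall of all 40. It stood at 32.9, 41.8 and 36.5 FPKM in control libraries and 11.1, 13.4 and 9.55 FPKM in NNMT libraries, on chromosome 13. The groups were far apart, and the mean was 3.27-fold lower in NNMT cells (log2 fold change -1.63, SE 0.110, limma adjusted p = 7.65e-07). The other ligands were at or near 0. Bmp2, Bmp7 and Gdf10 were listed at 0 in all 6 libraries, and Bmp4 had 1 read in control and 0 in NNMT libraries. Inhbb, which encodes the subunit of activin B, had 0 reads in control and 6 in NNMT libraries, and Bmp6 had 2 and 21. These 6 genes were below the level for testing, and the highest value among them was 0.124 FPKM, for Bmp6 in the unnumbered NNMT library. The span of Bmp6 overlaps Txndc5 on the opposite strand.

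The genes of the LTBP family and the processing protease Bmp1 rose together, and they were abundant. Ltbp3 (chromosome 19), which binds and helps secrete latent TGF-beta, stood at 93.5, 90.6 and 87.5 FPKM in control libraries and 171, 145 and 149 FPKM in NNMT libraries. Its groups did not overlap, and it rose 1.71-fold (log2 fold change 0.77, adjusted p = 3.00e-06); as for Tgfb3, the unknown strand rule makes its level less certain. Ltbp2 (chromosome 12), a microfibril-associated family member that does not bind latent TGF-beta, went from 37.1, 47.6 and 39.4 FPKM to 87.0, 78.0 and 75.2 FPKM, a 1.94-fold rise (log2 fold change 0.94, adjusted p = 6.71e-06). Ltbp1, which binds all TGF-beta isoforms, rose 1.36-fold from 61.3 ± 4.72 to 83.4 ± 4.26 FPKM, and Ltbp4 rose 1.27-fold from 14.7 ± 0.871 to 18.6 ± 2.54 FPKM. The adjusted p-values of these 2 were 0.000131 and 0.00743. Bmp1 is no BMP but a metalloprotease that trims procollagens and releases latent complexes by cutting LTBP1. It stood at 26.7, 27.0 and 25.9 FPKM in control and 37.6, 34.5 and 37.2 FPKM in NNMT libraries, with all NNMT libraries higher (1.37-fold, adjusted p = 2.31e-05). All 5 genes of this role thus rose, where 35% of all genes tested did. The summed LTBP level, which includes Ltbp2, went from 207.9 ± 10.2 to 337.4 ± 20.7 FPKM. Ltbp3 held the largest share of it in every library (41.3% to 47.4%).

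Of 9 tested receptors and co-receptors, 4 rose, 3 fell and 2 were not called (77.8% called against 65.6% of all genes tested). Tgfbr2 (chromosome 9), the type II receptor of TGF-beta, stood at 23.3, 19.0 and 20.7 FPKM in control libraries and 55.1, 45.6 and 52.3 FPKM in NNMT libraries. The lowest NNMT library was well above the highest control library, and the mean rose 2.42-fold (log2 fold change 1.24, SE 0.083, limma adjusted p = 7.05e-07). Tgfbr1, its type I partner, stood at 4.97, 4.90 and 4.96 FPKM and 5.25, 5.58 and 6.10 FPKM, a 1.14-fold difference near the threshold (log2 fold change 0.16, adjusted p = 0.0435). That call was lost without control replicates 1, 2 or 3 (adjusted p = 0.0878, 0.107 and 0.0913), without NNMT replicates 2 or 3 (0.0608 and 0.162), and in 3 other alternatives, over a range of 0.0173 to 0.162. The ratio of Tgfbr2 to Tgfbr1 in FPKM was 4.25 ± 0.412 in control and 9.08 ± 1.24 in NNMT libraries. These ratios did not overlap, which follows from the separate groups of Tgfbr2 given above. An exact permutation test of 3 against 3 cannot give a p below 0.1. Tgfbr3 (betaglycan), a co-receptor that presents ligand to TGFBR2, rose 1.29-fold from 22.8 ± 1.17 to 29.5 ± 2.13 FPKM (adjusted p = 0.000503).

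The activin receptors moved apart. Acvr1b, the type I receptor of activin, stood at 5.83, 5.42 and 4.97 FPKM in control libraries and 3.45, 3.46 and 3.80 FPKM in NNMT libraries. It fell 1.51-fold without overlap (log2 fold change -0.49, adjusted p = 0.000126). Acvr2a, a type II receptor of activins and BMPs, rose 1.32-fold from 2.53 ± 0.0675 to 3.34 ± 0.00399 FPKM (adjusted p = 0.00128), and its span overlaps Orc4 on the opposite strand. The ratio of Acvr1b to Acvr2a went from 2.14 ± 0.219 to 1.07 ± 0.0617. Acvr2b, the other activin type II receptor, was lower at 1.99 ± 0.262 against 2.42 ± 0.0142 FPKM, close to the threshold (adjusted p = 0.0422). Its call was lost without control replicates 1, 2 or 3 (adjusted p = 0.0857, 0.0984 and 0.0885), without the unnumbered NNMT library or NNMT replicate 3 (0.067 and 0.156), and in 3 other alternatives, over a range of 0.0113 to 0.156.

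Among the BMP receptors, the type II receptor Bmpr2 fell 1.24-fold from 7.26 ± 0.327 to 5.86 ± 0.309 FPKM (adjusted p = 0.00232). The type I receptor Bmpr1a was the most abundant of them at 14.1 ± 0.859 FPKM in control and 15.2 ± 0.686 FPKM in NNMT cells, with overlapping groups (log2 fold change 0.10, 95% interval -0.03 to 0.23, adjusted p = 0.149). Acvr1 (ALK2), another type I receptor, was also not called (log2 fold change 0.08, 95% interval -0.04 to 0.20). The remaining 3 receptors were below the level for testing. Bmpr1b was listed at 0 in all libraries. Eng (endoglin, whose span overlaps Fpgs on the opposite strand) and Acvrl1 (ALK1), which are best known from endothelial cells, stood at 0.214 ± 0.0690 and 0.297 ± 0.0658 FPKM in control and 0.307 ± 0.0856 and 0.147 ± 0.0237 FPKM in NNMT cells. The Acvrl1 libraries did not overlap (114 reads in control, 60 in NNMT), and the difference had an adjusted p of 0.0369 when all genes above 0 were tested.

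**Figure D3:**
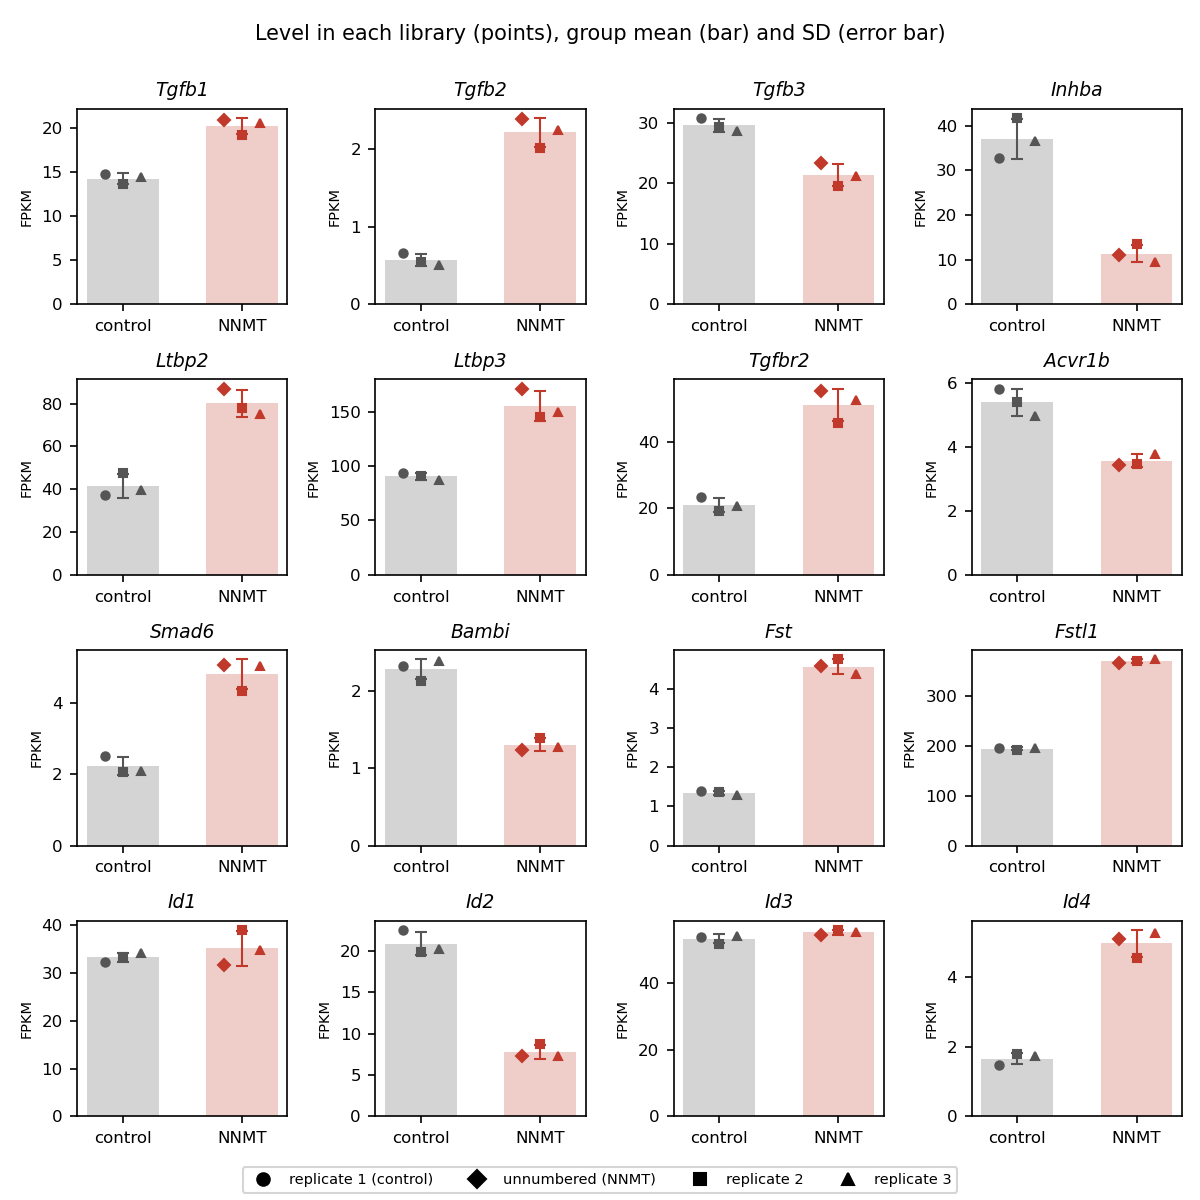
FPKM of 16 pathway genes in each library (points, with the library marked by shape), with the group mean (bar) and SD (error bar), n = 3 per group; each axis starts at 0. The groups are separate in 15 panels and overlap for Id1; in the Id3 panel they are separate by a margin too small to be called.

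Of 7 tested SMADs, 3 rose, 1 fell and 3 were not called (57.1% called against 65.6% of all genes tested). Smad6 moved most. Smad4 (chromosome 18), the partner of all receptor-regulated SMADs, was the most abundant at 31.5, 32.3 and 32.3 FPKM in control libraries and 27.7, 27.8 and 27.8 FPKM in NNMT libraries. It fell by a small and even amount (log2 fold change -0.20, adjusted p = 0.00186). Smad3, which carries TGF-beta and activin signals, rose 1.40-fold from 9.97 ± 0.655 to 13.9 ± 1.19 FPKM, with separate groups (log2 fold change 0.45, adjusted p = 0.000254). Smad2, which acts in the same branch, stood at 20.97 ± 0.282 and 20.6 ± 1.82 FPKM with overlapping groups (log2 fold change -0.03, 95% interval -0.17 to 0.11). In the BMP branch Smad1 rose 1.22-fold from 9.50 ± 0.203 to 11.6 ± 0.426 FPKM (adjusted p = 0.00109). Smad5 was at 9.77 ± 0.116 and 9.99 ± 0.607 FPKM (log2 fold change 0.03, 95% interval -0.09 to 0.15), and Smad9 was below the level for testing at 0.479 ± 0.0493 and 0.378 ± 0.0755 FPKM.

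The inhibitory SMADs differed from each other. Smad6 (chromosome 9), which chiefly restrains BMP signals, stood at 2.52, 2.07 and 2.09 FPKM in control libraries and 5.07, 4.34 and 5.04 FPKM in NNMT libraries. Its groups were well separated and it rose 2.16-fold (log2 fold change 0.85, SE 0.079, limma adjusted p = 7.02e-06). Smad7 (chromosome 18), which restrains both branches and is induced by TGF-beta, stood at 8.73, 10.8 and 9.73 FPKM and 9.32, 8.75 and 8.20 FPKM. These groups overlapped (log2 fold change -0.14, 95% interval -0.30 to 0.03, adjusted p = 0.13). Without control replicate 1, Smad7 was called lower (log2 fold change -0.21, adjusted p = 0.0334, in a range of 0.00118 to 0.453 over all alternatives).

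Of the 7 intracellular and membrane inhibitors, 3 fell, 1 rose and 3 were not called (57.1% called against 65.6% of all genes tested). Bambi (chromosome 18), a pseudoreceptor without a kinase domain that blocks type I receptors, stood at 2.31, 2.13 and 2.38 FPKM in control libraries and 1.23, 1.39 and 1.28 FPKM in NNMT libraries. It fell 1.75-fold with separate groups (log2 fold change -0.51, adjusted p = 0.000103). Smurf2, a ubiquitin ligase for SMADs and receptors, fell 1.29-fold from 19.9 ± 0.553 to 15.5 ± 1.11 FPKM (adjusted p = 0.00036), while its relative Smurf1 was 1.11-fold higher at 25.1 ± 1.08 FPKM (adjusted p = 0.0256). The Smurf1 call was lost without control replicates 1 or 3 (adjusted p = 0.077 and 0.0969), without the unnumbered NNMT library or NNMT replicate 3 (0.0596 and 0.073), and in 3 other alternatives, over a range of 0.0103 to 0.116. Ski, a corepressor of SMAD target genes, fell 1.21-fold from 25.7 ± 1.05 to 21.2 ± 1.28 FPKM (adjusted p = 0.00185).

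The other 3 inhibitors are themselves known to be raised by TGF-beta or to repress its targets. Skil, a corepressor related to Ski, stood at 8.80, 9.93 and 9.07 FPKM in control libraries and 9.10, 9.36 and 9.29 FPKM in NNMT libraries, with a log2 fold change of -0.001 (95% interval -0.12 to 0.12). Pmepa1, a membrane protein that sequesters receptor-regulated SMADs, stood at 17.3, 22.9 and 19.7 FPKM and 17.6, 18.8 and 16.8 FPKM. Its control libraries spread widely and the groups overlapped (log2 fold change -0.16, 95% interval -0.35 to 0.03). Without control replicate 1, Pmepa1 was called lower (log2 fold change -0.25, adjusted p = 0.0161, in a range of 0.000188 to 0.493). Tgif1, a homeobox corepressor, was at 25.3 ± 1.31 and 23.5 ± 0.635 FPKM (log2 fold change -0.10, 95% interval -0.21 to 0.01). It was called lower with scaling by medians of ratios (log2 fold change -0.14, adjusted p = 0.0302, in a range of 0.0302 to 0.351).

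Among the secreted antagonists, follistatin and follistatin-like 1 rose. Fst (chromosome 13), which binds activin almost irreversibly, stood at 1.40, 1.36 and 1.30 FPKM in control libraries and 4.57, 4.75 and 4.38 FPKM in NNMT libraries. The spread within each group was small beside the gap between them, and Fst rose 3.38-fold (log2 fold change 1.24, SE 0.063, limma adjusted p = 1.10e-07). The ratio of Inhba to Fst in FPKM was 23.6, 30.6 and 28.1 in control libraries and 2.43, 2.82 and 2.18 in NNMT libraries. Inhba thus stood above Fst in every library, with a mean ratio of 27.4 ± 3.60 in control and 2.47 ± 0.322 in NNMT cells. The groups of ratios did not overlap. This follows from the opposite, separate changes of the 2 genes and is no further support. Fstl3, a follistatin relative that also binds activin, was not called at 7.36 ± 0.682 and 6.54 ± 0.977 FPKM (log2 fold change -0.15, 95% interval -0.36 to 0.05). It was called lower without the unnumbered NNMT library (log2 fold change -0.25, adjusted p = 0.0161, in a range of 0.000107 to 0.469).

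Fstl1, a secreted glycoprotein of mesenchymal cells, was the most abundant of the 52 genes. It stood at 196, 192 and 196 FPKM in control libraries and 366, 370.0 and 373 FPKM in NNMT libraries, with libraries of a group within a few FPKM of each other. It rose 1.90-fold (log2 fold change 0.92, adjusted p = 4.42e-08). Fstl1 lies on chromosome 16, where 347 tested genes had a median log2 fold change of 0.29, and 12 of its 14 tested neighbours within 1 Mb were also higher (median 0.50). The part of this regional shift in the Fstl1 result was not tested.

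The BMP antagonists were scarce. Chrd (chordin, chromosome 16), which binds BMP in the matrix, fell 1.37-fold from 1.73 ± 0.141 to 1.26 ± 0.1004 FPKM (adjusted p = 0.00859, in a range of 0.00245 to 0.0519 over all alternatives, so that not all of them kept the call), while its 20 tested neighbours had a median log2 fold change of 0.10. Grem1 (gremlin), an antagonist of BMP2, BMP4 and BMP7, stood at 0.0354, 0.118 and 0.0837 FPKM in control libraries and 1.43, 1.56 and 1.64 FPKM in NNMT libraries, on chromosome 2. Its mean over the 6 libraries was under 1 FPKM, so it was not tested in the main analysis, and its groups were far apart. The mean was 19.5-fold higher in NNMT cells, on 35 reads in control and 712 in NNMT libraries. When all genes above 0 were tested, Grem1 had a log2 fold change of 1.24 and an adjusted p of 2e-05. Nog (noggin) had 0 reads in control and 1 in NNMT libraries.

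The ID genes split, with the 2 most abundant not called. Id3 (chromosome 4) stood at 53.8, 51.7 and 54.2 FPKM in control libraries and 54.4, 55.8 and 55.1 FPKM in NNMT libraries, separated by less than 1 FPKM (log2 fold change 0.05, 95% interval -0.05 to 0.15, adjusted p = 0.339). Of its 21 tested neighbours within 1 Mb, 16 were lower, with a median log2 fold change of -0.35. Id1 (chromosome 2) stood at 32.3, 33.3 and 34.2 FPKM and 31.8, 39.0 and 34.8 FPKM, with overlapping groups and NNMT replicate 2 the highest of all (log2 fold change 0.07, 95% interval -0.08 to 0.23). Id1 was called higher without the unnumbered NNMT library (log2 fold change 0.14, adjusted p = 0.0495) and had a log2 fold change of -0.001 without NNMT replicate 2 (adjusted p = 0.984, the highest over all alternatives).

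Id2 and Id4 changed in opposite directions. Id2 (chromosome 12) stood at 22.5, 19.8 and 20.2 FPKM in control libraries and 7.24, 8.78 and 7.26 FPKM in NNMT libraries. It fell 2.69-fold, with every control library above 19 FPKM and every NNMT library below 9 FPKM (log2 fold change -1.32, SE 0.076, limma adjusted p = 2.57e-07). Id4 (chromosome 13) went from 1.47, 1.78 and 1.73 FPKM to 5.09, 4.53 and 5.27 FPKM, a 2.99-fold rise (log2 fold change 1.17, SE 0.075, adjusted p = 5.58e-07). The share of Id2 in the summed ID level went from 19.1% ± 1.15 to 7.52% ± 0.536, and that of Id4 from 1.52% ± 0.171 to 4.84% ± 0.556. The sum was 109.0 ± 2.03 FPKM in control and 103.0 ± 4.85 FPKM in NNMT libraries.

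The setting of the members on the chromosomes was compared with their changes, since the median change differed between chromosomes. Ski, which fell, lies on chromosome 4 among 34 tested neighbours of which 20 fell (median log2 fold change -0.22, beside -0.26 for Ski). Smad1 (neighbour median 0.27, own value 0.26) and Smad4 (-0.25 and -0.20) were also close to their neighbours. In these cases the part of the regional shift was not tested. Other members moved against or well beyond their surroundings. Tgfb1 rose among 20 neighbours with a median of -0.27, of which 10 fell and 1 rose. Id4 rose among 9 neighbours with a median of -0.10, and Fst among 5 with a median of 0.25. Id2 fell by 1.32 on the log2 scale among 5 neighbours with a median of -0.21. Inhba had only 1 tested neighbour within 1 Mb, which rose. No member lies on X, where the median log2 fold change of 338 tested genes was -0.70.

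Further genes of the pathway, 144 on 6 lists, were counted in the same way. Of 89 tested, 36 were higher, 24 lower and 29 not called (67.4% called against 65.6% of all genes tested), with a median log2 fold change of 0.10. Among genes for the activation of latent TGF-beta, 4 of 10 tested rose and 3 fell (70.0% called against 65.6%). The integrin beta chains Itgb3 and Itgb5 rose 1.64-fold to 7.13 ± 0.400 FPKM and 1.45-fold to 109.8 ± 10.02 FPKM. Their partner Itgav, the alpha V chain of the integrins that bind the latency peptide, fell 1.13-fold from 46.6 ± 1.73 to 41.1 ± 0.916 FPKM, and the beta chain Itgb1 fell 1.27-fold from 223 ± 9.80 to 176 ± 6.13 FPKM (adjusted p = 0.00726 and 0.000173, both named after their values were seen). Emilin1, which restrains TGF-beta processing in the matrix, rose 2.01-fold from 40.5 ± 2.24 to 81.2 ± 16.1 FPKM. Furin, the protease that cleaves the TGF-beta precursor, fell 1.36-fold from 29.2 ± 0.993 to 21.4 ± 1.67 FPKM. Adjusted p-values of Itgb3, Itgb5, Emilin1 and Furin lay between 9.68e-06 and 0.00011.

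Of other ligands and receptors, 3 of 24 reached the level for testing, and Inha and Gdf11 fell. Inha, which encodes the inhibin alpha chain, fell 1.55-fold from 3.73 ± 0.0176 to 2.41 ± 0.274 FPKM, and Gdf11, an activin-like ligand, fell 1.36-fold from 9.79 ± 0.751 to 7.19 ± 0.101 FPKM (adjusted p = 0.000201 and 0.00021). Of 14 tested further antagonists and co-receptors, 5 rose and 5 fell (71.4% called against 65.6% of all genes tested). Rgma, a co-receptor for BMP, fell 2.55-fold from 21.2 ± 1.13 to 8.32 ± 0.845 FPKM (log2 fold change -1.26, adjusted p = 2.14e-07). Bmper and Tsku, secreted BMP modulators, rose 1.69-fold and 1.76-fold to 15.5 ± 0.530 and 13.4 ± 0.348 FPKM. Bgn, a small proteoglycan that binds TGF-beta, fell 1.65-fold and is X-linked. Of 32 tested intracellular regulators of SMADs, 9 rose, 8 fell and 15 were not called (53.1% called against 65.6% of all genes tested). Ppp1r15a, a phosphatase subunit that SMAD7 can bring to the receptor and that also ends stress-induced translation arrest, rose 2.08-fold to 30.4 ± 3.58 FPKM. The kinase Hipk2 fell 1.88-fold from 15.7 ± 1.62 to 8.34 ± 0.146 FPKM. The deubiquitinases Usp9x and Usp11, 2.26-fold and 1.98-fold lower, are X-linked.

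**Figure D4:**
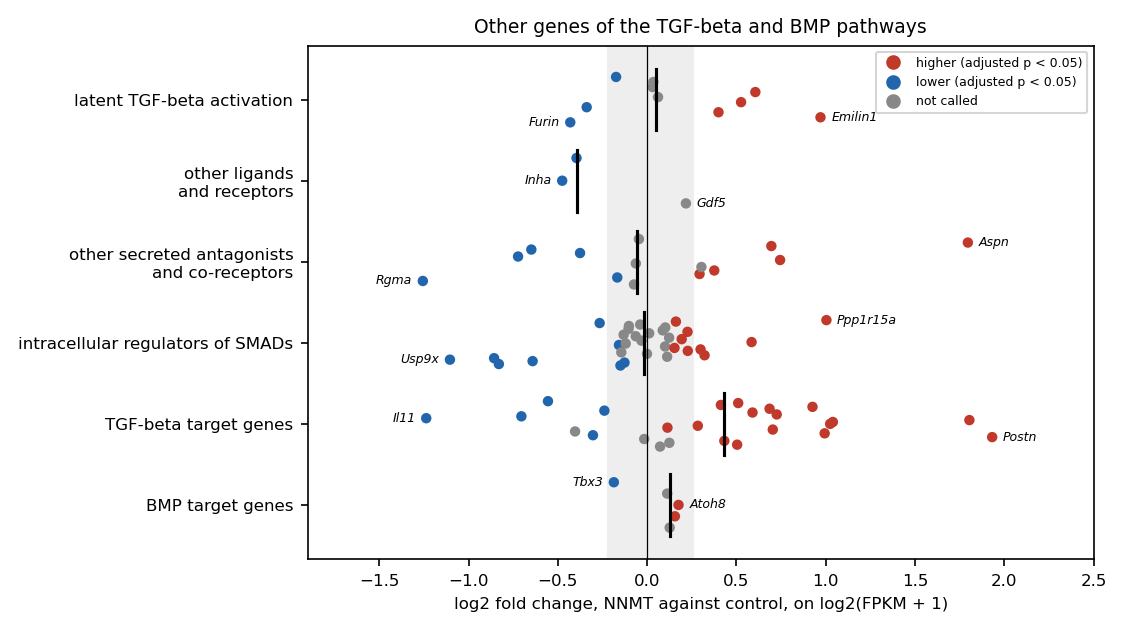
Log2 fold change (NNMT against control, on log2(FPKM + 1)) of the 89 tested genes of the 6 further pathway lists, 1 point per gene, with the list median as a black bar, the lowest and highest gene of each list named, and the middle 50% of all 10882 genes tested in grey. The TGF-beta target list has a median of 0.43 and reaches from Il11 (-1.24) to Postn (1.93), and the 5 tested BMP targets lie between -0.19 and 0.18.

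Of 25 tested TGF-beta target genes, 16 rose, 5 fell and 4 were not called. Thus 84.0% were called against 65.6% of all genes tested (35% higher and 30.6% lower). The median log2 fold change was 0.43 against 0.03 over all genes tested. This list is rich in collagen and matrix genes, whose rise in these libraries was known when it was drawn up, so it is no independent evidence of a direction. Postn (periostin), Tgfbi and Lox, which are matrix proteins and a collagen cross-linking enzyme, rose 3.90-fold, 4.01-fold and 2.06-fold to 141 ± 15.2, 20.4 ± 3.50 and 808 ± 15.9 FPKM. Il11, a cytokine that fibroblasts make in answer to TGF-beta, fell 2.99-fold from 6.41 ± 0.214 to 2.14 ± 0.127 FPKM (log2 fold change -1.24, adjusted p = 9.54e-08). Named after their values were seen, Klf10, an early response factor, fell 1.74-fold from 9.28 ± 0.311 to 5.33 ± 0.649 FPKM, and Ccn2, a matricellular protein, was not called at 37.7 ± 10.2 and 29.0 ± 11.8 FPKM. Of 16 BMP target genes 5 were tested, with 2 higher and 1 lower. Atoh8 and Runx2 were 1.16-fold and 1.13-fold higher (adjusted p = 0.0355 and 0.0434), and Tbx3 was 1.18-fold lower (adjusted p = 0.0172). The span of Runx2 overlaps Supt3 on the opposite strand. Each of these 3 calls was lost without at least 1 library. Scaling by medians of ratios and testing all genes above 0 also ended the call of Atoh8 (limma adjusted p = 0.0861 and 0.0669). Both of these alternatives and quantile normalization ended the call of Runx2 (0.122, 0.0859 and 0.0954). Atoh8 was lost without control replicates 2 or 3 (adjusted p = 0.114 and 0.112), the unnumbered NNMT library (0.0725) or NNMT replicate 3 (0.125). Runx2 was lost without control replicates 1, 2 or 3 (0.0944, 0.0502 and 0.142), the unnumbered NNMT library (0.0557) or NNMT replicate 3 (0.171), and Tbx3 without control replicate 2 (0.0681).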

How the data were processed

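RNA sequencing of 3 control and 3 NNMT libraries was analysed. Per the submitters' processing notes, CASAVA and STAR 2.5 were used with build mm10. No source names the read counter, annotation or strand rule. The table deposited by the authors states no unit and was read as FPKM: whole reads were recovered for 20528 of 20528 genes above 0 (tolerance 0.01 of a read), and 71.1% of steps matched the longest GENCODE M21 transcript. For other genes another annotated transcript length was taken where it gave whole reads. Where none did, the shortest length giving whole reads was taken, so the reads of those genes may be understated. The identifiers of 34490 of 35275 rows were paired with GENCODE M21 (GRCm38). Of the 6 columns 1 carries no replicate number. Testing used limma 3.58.1 (R 4.3.3) on log2(FPKM + 1), for genes whose mean over all libraries reached 1 FPKM (trend, robust, two-sided, Benjamini-Hochberg over 10882 genes, threshold 0.05). Folds are ratios of mean FPKM, given where each group had 10 reads or more. In simulated data with 200 changed genes among 10861, the limma fit recovered 70% of genes changed 1.25-fold and 100% at 1.5-fold, 2-fold and 4-fold. It made 14 false calls. The simulation gave every gene the same assumed spread and changed far fewer genes than were called here. These rates may therefore not hold for these libraries. In recovered reads, libraries of a group differed by more than counting error (chi-square per degree of freedom 5.41 to 18.8), so none was taken as a copy.

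All 52 genes may be named. Library values are given for the most changed and most abundant of each role, and the other lists by their smallest adjusted p. The members and lists were chosen with earlier results of these data known. Promoters are RefSeq's (GRCm38.p6). The planned edgeR and DESeq2 fits need counts and were not run. Limma-voom on recovered reads was added after seeing the data.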

Additional observations from a re-analysis of the deposited data

How the results depend on the processing

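Of the 29 called members, 25 kept their call in all of up to 16 alternatives and none reversed. The exceptions were Tgfbr1, Acvr2b, Smurf1 and Chrd. The number of members higher (18) and lower (11) ranged from 16 to 18 and from 10 to 12 when 1 library was left out, and of other pathway genes (36 and 24) from 31 to 38 and from 20 to 24. Requiring a log2 fold change of 1 or more in size left 4 and 2 members and 6 and 3 other pathway genes. At a mean of 5 FPKM or more, 13 members were higher and 7 lower, since fewer genes were tested. Signs changed for 4 uncalled members. Smad5 reached -0.01 under quantile normalization, -0.014 with medians of ratios and ranged from -0.009 to 0.07 when 1 library was left out. Leaving out 1 library moved Smad2 from -0.089 to 0.034 (0.032 with the replicate block), Skil from -0.034 to 0.046 (0.01 without the unnumbered NNMT library) and Id1 from -0.001 to 0.142. The cause was not tested. Nnmt stayed higher in all 16 alternatives (log2 fold change 0.68 to 1.36).

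The replicate block could use numbers 2 and 3 alone, with 4 libraries. It gave 17 members higher and 13 lower, and for other pathway genes 38 and 26. It ended the calls of Acvr2b (adjusted p = 0.0578), Smurf1 (0.0937), Chrd (0.0519) and Tbx3 (0.0777). It called 4 further members, all lower: Smad7 (log2 fold change -0.25, adjusted p = 0.00118), Pmepa1 (-0.25, 0.000188), Fstl3 (-0.32, 0.000107) and Tgif1 (-0.14, 0.0386). Of the genes named after their values were seen it also called Ccn2 lower (-0.42, 1.87e-08), in a fit with 1 residual degree of freedom. Deviations of same-numbered libraries correlated at 0.212 (number 2) and 0.11 (number 3), and control replicate 3 correlated better with NNMT replicate 2 (0.212). Control replicate 1 and the unnumbered NNMT library had the highest of the 9 correlations (0.314), but that column carries no number and was not paired. With 2 numbered pairs the check cannot decide, so the samples were taken to share only a number. Depth limits the untested members with 21 reads or fewer per group (Bmp4, Bmp6, Inhbb and Nog). The planned edgeR and DESeq2 fits were not run.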

Other observations

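Of 40 tested members, 8 (Acvr1, Acvr2b, Inhba, Ltbp1, Pmepa1, Skil, Smad4 and Smurf2) were at their highest in replicate 2 of both groups (11.2% of all genes tested were). Of 25 tested TGF-beta target genes, 6 did the same, among them Acta2, Ccn2 and Tagln. Ccn2, a matricellular protein, stood at 27.5, 47.8 and 37.9 FPKM in control libraries and 21.1, 42.6 and 23.2 FPKM in NNMT libraries, so that its spread within a group exceeded the difference between them. This grouping was chosen after the values were seen, and no test was made of it.

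Some pathway genes below the level for testing had control and NNMT libraries that did not overlap. Gdf15, a divergent family member raised by cell stress, stood at 0.190, 0.0333 and 0.0613 FPKM in control and 0.728, 0.659 and 0.784 FPKM in NNMT libraries (15 and 125 reads). The integrin chain Itgb8, whose product activates latent TGF-beta, stood at 0.724, 0.584 and 0.740 FPKM and 0.265, 0.236 and 0.213 FPKM. Fbn2 (fibrillin 2) stood at 0.0308, 0.0147 and 0.0241 FPKM and 0.210, 0.127 and 0.202 FPKM. Among the tested antagonists Aspn (asporin), which binds TGF-beta, had the widest rise of its list, 3.85-fold from 6.98 ± 1.06 to 26.9 ± 5.22 FPKM (log2 fold change 1.80, limma adjusted p = 1.41e-06). These genes were picked after their values were seen.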
